A study of Caenorhabditis elegans with 4 samples.

Results

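The genes described here are 33 regulators of neuron fate in Caenorhabditis elegans, chosen by symbol from 19971 nuclear protein-coding genes. They encode transcription factors that either start a neuronal lineage or give a neuron class its final identity. The question was where UNC-62 bound at these genes in embryos, set against the other 19938 protein-coding genes. UNC-62 is a TALE homeodomain protein of the MEIS class. MEIS proteins act with PBC proteins, such as CEH-20 in the worm, as cofactors of Hox proteins on DNA. In worms, unc-62 is known for roles in embryonic patterning and in the migration of the Q neuroblast descendants. Among the fate regulators, proneural bHLH factors act early, in neuroblasts. Terminal selectors such as UNC-86, UNC-3 and CHE-1 act later and keep the identity genes of a neuron class switched on.

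Chromatin immunoprecipitation followed by sequencing was done on hermaphrodite embryos of strain OP600, with 2 samples of UNC-62 ChIP and 2 of Input. All 4 samples carry the allele unc119(ed3) and the transgene wgIs600. This transgene holds unc-62 joined to TY1, EGFP and FLAG tags, and unc119. It was brought in by bombardment, and the strain was outcrossed 3 times. The tagged UNC-62 carried GFP and was pulled down with anti-GFP antibodies after crosslinking with 2% formaldehyde at a growth temperature of 20 °C. The labels name no unc-62 mutation and give no copy number for the transgene, and whole embryos were used, so each neuron class is a small part of the material. The Input libraries enter here only as far as the authors' region calling used them. Nothing in the labels says whether the replicates were separate cultures.

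The authors deposited 7964 binding regions for the series, 7782 for replicate 1 and 3138 for replicate 2. No read counts come with them, and the sequencing depth is unknown. Each region has 1 unnamed value, read here as a q-value, and regions were ranked by it within their own list with 1 as the strongest. The largest q-value was 0.000997 in the series list, 0.00999 in replicate 1 and 0.000998 in replicate 2, so the replicate 1 list reached weaker regions than the other lists. A gene was counted as having a region when the midpoint of a region lay inside the gene or within 2 kb of either end. Both sides were taken because the gene table holds no strand. Regions carry WS220 coordinates and gene positions come from WBcel235, whose offset of about 100 bp at most can decide regions near an edge.

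UNC-62 regions were found at 21 of the 33 neuron fate regulators (63.6%), whereas 36% of the other protein-coding genes had one. In replicate 1 the count was 20 of 33 (60.6%), against 35.2% of the other genes. In replicate 2 it was 8 of 33 (24.2%), against 17.1% of the other genes. The same 8 regulators had a region in both replicates, and 16.5% of the other genes did. These 8 were egl-44, vab-3, zag-1, ceh-14, lin-32, cnd-1, lin-11 and unc-30. Region lists exist here for 1 group of samples, so no test between groups could be made, and the counts and shares are descriptions.

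**Figure D1:**
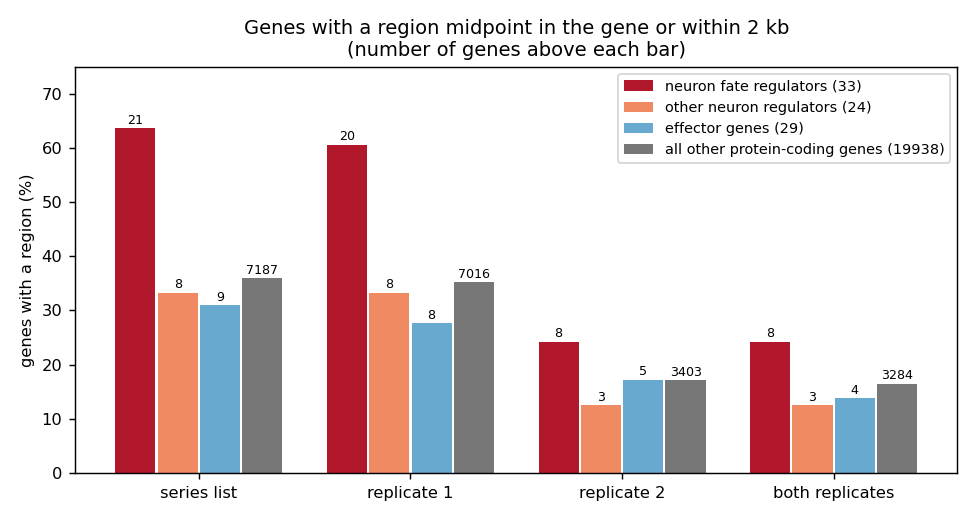
Percentage of genes with a UNC-62 region inside the gene or within 2 kb of either end, for the 33 neuron fate regulators, 24 other neuron regulators, 29 effector genes and 19938 other protein-coding genes, in each region list, with the number of genes above each bar. The neuron fate regulators have the highest bar in every list, at 63.6% in the series list and 24.2% in replicate 2. The median gene lengths of the groups, in the order named, are 4.9, 3.45, 4.97 and 2 kb.

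Strand decided the call for some of these genes. A window reaching only upstream would keep at least the 12 regulators with a region whichever way the gene runs (36.4%, against 12.9% of the other genes) and at most 21. The 9 genes in between, hlh-14, hlh-3, unc-4, cnd-1, lim-6, lin-32, fax-1, ham-2 and odr-7, had regions on 1 side only and none inside the gene. Inside the genes themselves, 12 of 33 regulators (36.4%) and 9.59% of the other genes had a region.

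Gene length moved with these shares. The regulators had a median length of 4.9 kb and the other genes one of 2 kb, and longer genes had a region more often. Among genes of 2 to 4 kb, 4 of 9 regulators had a region (44.4%), against 36.3% of 5691 other genes. From 4 to 8 kb the counts were 10 of 17 regulators (58.8%), against 50.0% of 2836 other genes. From 8 kb up, all 4 regulators and 66.0% of 1460 other genes had one. Below 2 kb, all 3 regulators, hlh-14, hlh-3 and lin-32, and 27.5% of 9951 other genes had one. Counted over the 2 kb sides alone, which are equally long for every gene, 13 of 33 regulators (39.4%) and 31.3% of the other genes had a region. The share of genes with a region inside them was not split by length. How far length accounts for the overall difference, or for that inside genes, was not tested.

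**Figure D2:**
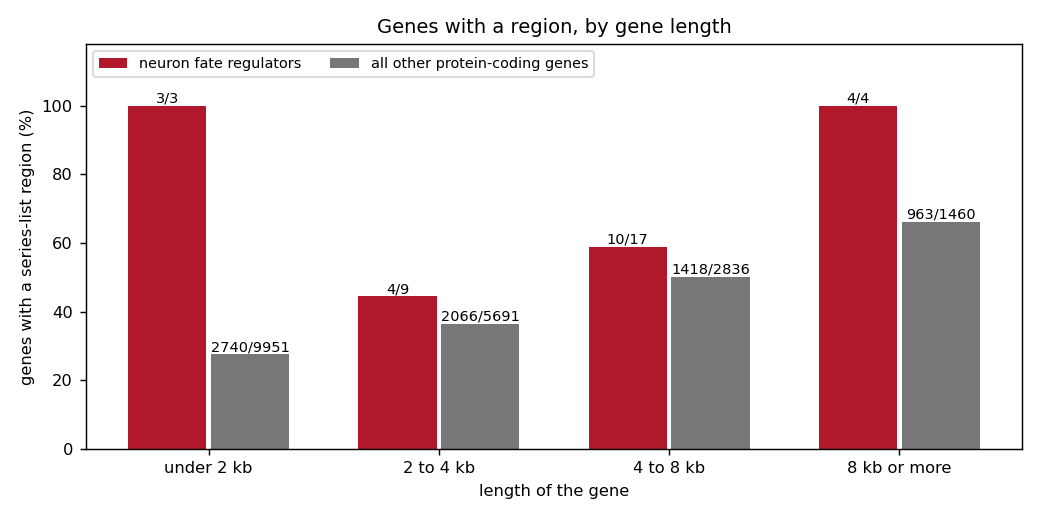
Percentage of genes with a series-list region inside the gene or within 2 kb, by gene length, for the neuron fate regulators and for all other protein-coding genes, with the number of genes with a region and of all genes above each bar. For genes of 4 to 8 kb, where 17 of the regulators lie, the share is 58.8% of regulators and 50.0% of other genes.

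By number, the regulators together held 38 regions, or 1.24 per 10 kb of gene and sides, against 0.767 per 10 kb at the other genes. Inside the genes the density was 1.26 per 10 kb in the regulators and 0.476 per 10 kb in the other genes, while on the 2 kb sides it was 1.21 per 10 kb in the regulators and 0.997 per 10 kb in the other genes. In replicate 1 the regulators had 1.4 regions per 10 kb of gene and sides, and the other genes 0.743. Replicate 2 gave 0.294 per 10 kb of gene and sides at the regulators and 0.298 at the other genes. Split by place, its density inside genes was 0.287 per 10 kb in the regulators and 0.163 in the other genes, and on the sides it was 0.303 in the regulators and 0.405 in the other genes. The density inside genes was thus higher at the regulators than at the other genes in every list, whereas on the sides it was lower at them in replicate 2. These replicate 2 densities at the regulators rest on only 5 regions inside genes and 4 on the sides. Inside genes, replicate 2 gave 0.331 per 10 kb at the other neuron regulators and 0.247 at the effector genes, from 3 and 4 regions. Inside genes, replicate 2 had a region in 4 of 33 regulators (12.1%), against 3.82% of the other genes. With series regions at a q-value of at most 1e-10, the density of gene and sides was nearly equal, at 0.0261 per kb in the regulators and 0.0257 per kb in the other genes.

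Most regions at the regulators were of moderate or low strength. Their median rank was 4585, against 3980.5 for all 7926 other series regions, and their median width was 302 bp, against 312 bp. A match in both replicates was found for 9 of the 38 (23.7%), against 36.8% of the other regions. A match in replicate 1 alone was found for 26 of the 38 (68.4%, against 47.8%), and 3 had none in either replicate (7.89%, against 14.2%). These 3 were at unc-55, fax-1 and vab-7. Of the 38 regions, 22 lay inside a regulator and 16 beside it. At the other genes the counts were 3018 inside and 7955 beside, with a region counted for each gene in reach. For 27 of the 38 no other protein-coding gene came within 2 kb, and for 30 the regulator was the nearest protein-coding gene. No shares for regions elsewhere are given beside these counts of neighbours.

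**Figure D3:**
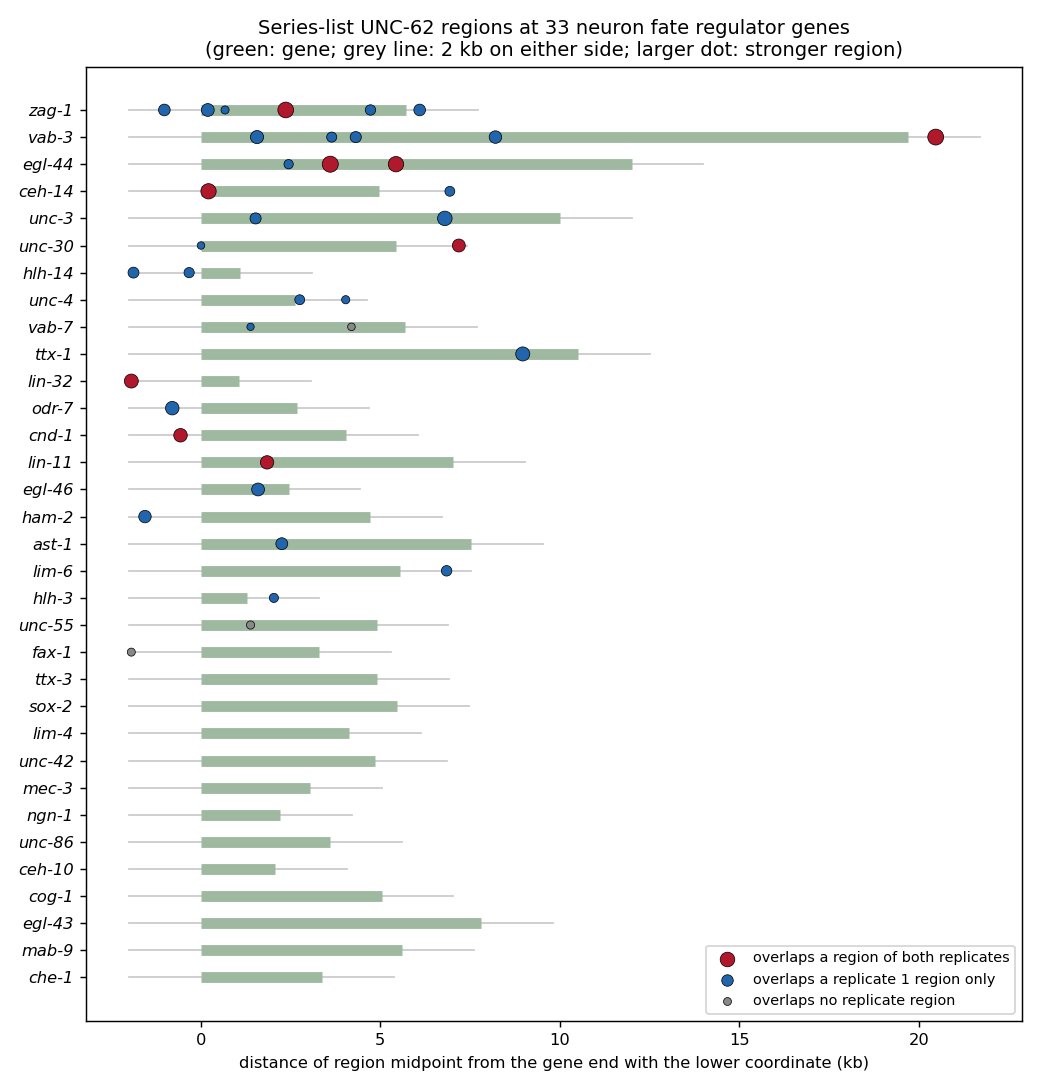
Positions of the 38 series-list regions at the 33 neuron fate regulators, as the distance in kb of each region's midpoint from the gene end with the lower coordinate, not in the direction of transcription; bars are genes, lines are the 2 kb on either side, and dots grow with strength and are coloured by the replicates a region overlaps. The genes zag-1, vab-3 and egl-44 hold 14 of the 38 regions, and the last 12 genes hold none.

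Of the early-acting factors, CND-1, a NeuroD-type bHLH factor of embryonic motor neuron lineages, had 1 region, III 5239916 to 5240150, with q-values of 5.22e-10 in the series list, 1.79e-05 in replicate 1 and 9.14e-05 in replicate 2. It lay 0.56 kb outside cnd-1 and inside the neighbouring gene prx-10. LIN-32, an Atonal-type factor needed for touch receptor and other sensory lineages, had 1 region 1.93 kb outside the gene, X 2226871 to 2227372, with q-values of 1.9e-11, 1.79e-07 and 3.68e-05 in the same order of lists. The gene hex-1 was nearer to it than lin-32 was. Both regions were thus seen in all 3 lists, but each sat next to another gene as well.

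The Achaete-Scute-type factors HLH-14 and HLH-3, which act in neuroblasts of lineages such as that of the HSN neuron, had regions in replicate 1 and none in replicate 2. The hlh-14 gene had regions 0.32 and 1.87 kb outside it on the same side, with series q-values of 2.31e-05 and 7.01e-06 and replicate 1 q-values of 0.00166 and 0.00202. At hlh-3 a broad region of 698 bp lay 0.74 kb outside the gene, with q-values of 0.000106 in the series list and 0.000421 in replicate 1. No region lay within 2 kb of ngn-1, the worm neurogenin. Its nearest region, 3.04 kb away at IV 2631156 to 2631456, was seen in all 3 lists, with q-values of 1.37e-16, 2.41e-10 and 9.24e-07 in the series list, replicate 1 and replicate 2. Likewise, sox-2, a SoxB gene of neural progenitors, had none within 2 kb and its nearest at 4.24 kb, with 2.43e-10 in the series list, 5.78e-08 in replicate 1 and no match in replicate 2. The bHLH group thus had 4 of 5 members with a region, against 36% of the other protein-coding genes. All of these regions lay outside the genes on 1 side only, so the calls depend on strand.

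Of the LIM homeodomain genes, 3 of 6 had a region, against 36% of the other protein-coding genes. The median length of these 6 was 4.94 kb, and 50.0% of other genes of 4 to 8 kb had a region. CEH-14, which specifies the AFD thermosensory neuron among others, had the strongest region of this class. This 662-bp region, X 7527654 to 7528315, covered the lower-coordinate end of ceh-14 and had q-values of 7.01e-21 in the series list, 3.48e-14 in replicate 1 and 0.000125 in replicate 2. The replicate 2 region was 329 bp wide and ranked 2299 of 3138. A further ceh-14 region 1.98 kb outside the gene was weak (3.94e-05) and nearer to dpy-7. LIN-11, which acts in the AIZ and other interneurons and in the vulva, had 1 region inside the gene, with q-values of 1.21e-09, 7.42e-05 and 0.000998 in the series list, replicate 1 and replicate 2. The last of these was the weakest region of the replicate 2 list, at rank 3138. At lim-6, a regulator of some GABAergic neurons and of the left ASE taste neuron, 1 region lay 1.31 kb outside, with 1.4e-05 in the series list and 0.002 in replicate 1, and pfn-3 was nearer. The other three had no region within 2 kb. The nearest one was 6.65 kb from ttx-3, the selector of the AIY interneuron, 8.07 kb from lim-4, which specifies the AWB olfactory neuron, and 20.05 kb from mec-3, the selector of touch receptor neurons.

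The POU homeodomain gene unc-86, which acts with mec-3 in touch receptor neurons and in many other classes, also had no region within 2 kb. Its nearest was weak, 2.88 kb away, with a q-value of 0.000619 in the series list and 0.00699 in replicate 1.

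Of the other homeodomain genes, 5 of 8 had a region, against 36% of the other protein-coding genes. The median length of these 8 was 5.24 kb, and 50.0% of other genes of 4 to 8 kb had a region. The strongest region of this group was at vab-3, the worm Pax6, which patterns the head. Region X 10520122 to 10520572 had q-values of 5.55e-34 in the series list, 1.14e-20 in replicate 1 and 7.52e-14 in replicate 2, and ranked 533, 611 and 375 in them. It lay 0.77 kb beyond the higher-coordinate end of vab-3, and F14F3.4 was nearer, so it cannot be given to vab-3 alone. The other 4 regions at vab-3 lay inside this 19.7-kb gene, with series q-values from 4.14e-09 to 2.81e-05, each matched in replicate 1 and none in replicate 2. Replicate 1 placed 9 regions at vab-3, of which 4 matched no series region and were weak, with q-values of 0.000365 to 0.00718.

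UNC-30, the Pitx-type selector of GABAergic D motor neurons, had 2 regions. One, 1.76 kb outside the gene with no other gene within 2 kb, had q-values of 1.17e-08, 2.34e-06 and 0.000586 in the series list, replicate 1 and replicate 2. The other straddled the gene's lower-coordinate end and was weak, at 0.000475 in the series list and 0.00122 in replicate 1. TTX-1, the Otx-type regulator of the AFD neuron, had 1 region inside the gene, V 20062557 to 20062813, with 7.91e-12 in the series list and 6.02e-09 in replicate 1, and none in replicate 2. At unc-4, which sets the A-type motor neurons apart, regions 0.13 and 1.41 kb outside had 3.85e-05 and 0.000259 in the series list and 0.00198 and 0.000719 in replicate 1, and the farther one was nearer to F26C11.3. The even-skipped type gene vab-7, of the DB motor neurons, had 2 weak regions inside (0.000557 and 0.000448), and replicate 1 matched the first of them at 0.00022. No region came within 2 kb of ceh-10, unc-42 or cog-1, which act in the AIY and CAN neurons, in interneurons with glutamate receptors and in the right ASE taste neuron. The distances to the nearest were 11.7, 20.63 and 17.01 kb. Those nearest ceh-10 and unc-42 were strong and in all 3 lists (series q-values 3.5e-20 and 3.6e-19), but R12B2.7 and ztf-7 were the genes nearest to them. The region nearest cog-1 was 2 bp wide with no match in either replicate.

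Zinc finger regulators included the gene with the most series-list regions of the 33. ZAG-1, a ZEB-type factor of neuron differentiation and axon guidance, had 6 series regions, 7 in replicate 1 and 1 in replicate 2. At least 6 regions were counted at 0.416% of the other protein-coding genes. The strongest, IV 3857946 to 3858482, lay near the middle of the 5.73-kb gene and had q-values of 9.22e-29 in the series list, 4.31e-20 in replicate 1 and 4.59e-10 in replicate 2. The other 5, with series q-values from 2.15e-08 to 0.000289, were matched in replicate 1 only. A single replicate 1 region of 630 bp covered 2 of them, at the lower-coordinate end of the gene. Of the 6 regions, 4 lay inside zag-1 and 1 on each side.

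EGL-46, which acts with EGL-44 to keep FLP neurons from taking the touch receptor fate, had 1 region inside the gene, with q-values of 2.04e-08 in the series list and 5.42e-06 in replicate 1. The region at ham-2, a gene of the HSN neuron, lay 1.55 kb outside, with 9.17e-08 in the series list and 6.86e-05 in replicate 1. Neither had a match in replicate 2. The nearest series region was 12.08 kb from egl-43, which acts in HSN migration, and 10.75 kb from che-1, the selector of the ASE taste neurons. The one nearest che-1 was strong in all 3 lists, with 1.87e-39 in the series list, but gly-2 was the gene nearest to it.

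Regulators of the remaining families included the strongest region of all. EGL-44, the worm TEAD factor, had 3 series regions and the 2 strongest appeared in every list. Region II 5932116 to 5932759 (644 bp) had q-values of 2.44e-44 in the series list, 1.02e-29 in replicate 1 and 8.51e-21 in replicate 2, and ranked 322, 325 and 166. Region II 5933992 to 5934546 (555 bp) had 3.52e-22, 9.01e-13 and 2.1e-09. The third, of 235 bp, had 8.21e-05 in the series list and 0.000834 in replicate 1. All 3 lay inside the 12-kb gene, at least 2.45 kb from either end, and no other protein-coding gene came within 2 kb. A region as strong as the first was found at 1.68% of the other genes.

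UNC-3, the COE-type selector of cholinergic motor neurons, had 2 regions inside the gene. The stronger, X 14780116 to 14780561, had q-values of 3.07e-14 in the series list and 4.09e-12 in replicate 1, where it ranked 1409 of 7782. Replicate 2 had no match for it, nor for the weaker one (4.77e-06 in the series list, 0.000698 in replicate 1). AST-1, the ETS factor of dopaminergic neurons, had 1 region inside the gene, with 5.99e-07 in the series list and 9.55e-06 in replicate 1, and 2 more in replicate 1 alone. At mab-9, a T-box gene of the hindgut and of motor neurons, the series list had no region within 2 kb, but replicate 1 had 1 inside the gene with a q-value of 0.00208, past the limit of the series list. The nearest series region was 3.18 kb away, with 2.65e-10.

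All 3 nuclear receptor genes had a series region, against 36% of the other protein-coding genes. None of the 3 had one in replicate 2, where 17.1% of the other genes did. The region at odr-7, which gives the AWA olfactory neuron its identity, had 4.68e-10 in the series list and 8.52e-07 in replicate 1. It lay 0.79 kb outside, nearer to T18D3.1. The regions at unc-55, a COUP-type gene that sets VD apart from DD motor neurons, and at fax-1, a gene of interneuron identity, were among the weakest, with series q-values of 0.000255 and 0.000315 and no match in either replicate.

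**Figure D4:**
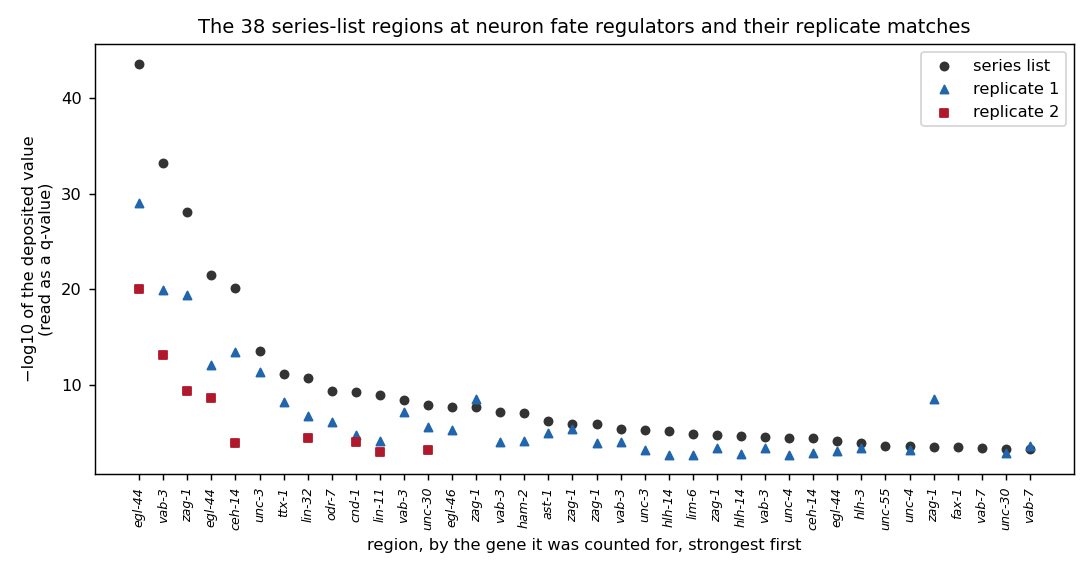
The 38 series-list regions at neuron fate regulators, each labelled with its gene and ordered by rank, with −log10 of the deposited value (read as a q-value) in the series list and in the strongest overlapping region of each replicate; a missing marker means no overlapping region. The 9 regions with a replicate 2 match all lie among the 13 strongest shown, and their q-values were smaller in replicate 1 than in replicate 2 in all 9. Depth and enrichment both move these values, so they do not compare strength between lists, and no share over all matched regions is given.

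Strong regions were few. Of the regulators, 3 (9.09%), egl-44, vab-3 and zag-1, had a region among the strongest 796 of the series list, 10% of it, against 4.29% of the other genes. With the strongest 3982 regions the counts were 13 of 33 regulators (39.4%) and 21.0% of the other genes. At a q-value of at most 1e-10, 7 of 33 regulators (21.2%) and 15% of the other genes had a region, a gap of 6.22 percentage points in place of 27.6.

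Genes that lie downstream of these regulators were set beside them. Of 29 effector genes, which include channels, receptors and transmitter enzymes of the same neuron classes, 9 had a region (31.0%, against 36% of protein-coding genes other than the 33). Their median length was 4.97 kb, and 50.0% of other genes of 4 to 8 kb had a region. The order against all other genes turned with the window. Inside genes, 5 of 29 effector genes (17.2%) and 9.59% of the other genes had a series region, and 13.8% and 3.51% had one in both replicates. With a reach of 5 kb it was 17 of 29 effector genes (58.6%) and 52.2% of the other genes. The touch receptor genes mec-4, mec-10, mec-17 and mec-18, which UNC-86 and MEC-3 activate, had none in the series list, and mec-7 had a weak one (0.000137) with no replicate match. That region at mec-7 lay inside the neighbouring gene deg-1. UNC-30 targets unc-25 and unc-47, which serve GABA synthesis and packaging, had none. Choline acetyltransferase and acetylcholine transporter genes cha-1 and unc-17, targets of UNC-3, shared 1 region of 64 bp with a q-value of 0.000623 and no replicate match. Of the guanylyl cyclase genes, gcy-5, gcy-6 and gcy-7 of the ASE neurons and gcy-8, gcy-18 and gcy-23 of the AFD neurons had none in the series list. Also without a series region were acr-2, acr-5, bas-1, cat-2, del-1, flp-13, glr-1 and sra-11. Replicate 1 alone had 1 region each at mec-17, gcy-5, glr-1 and acr-2.

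The effector genes with the strongest regions were kal-1, ser-2 and cat-1. The kal-1 gene, which encodes the worm anosmin, had 7 series regions, 5 in replicate 1 and 2 in replicate 2. The strongest had a series q-value of 1.95e-16 and was matched in replicate 1 only. The next, at 2.1e-16, was matched in both replicates, with 0.000137 in replicate 2. Some of the rest, among them a region of 8 bp, matched neither replicate. The tyramine receptor gene ser-2 had its stronger region at 4.16e-13, and cat-1, the vesicular monoamine transporter gene, had 1 at 9.1e-12. Both of these were matched in both replicates. The genes glr-4, odr-10 and dat-1 had series regions as well. The stronger of 2 at glr-4 had 3.95e-10 and was matched in both replicates. The region at odr-10 had 3.59e-05 and a match in replicate 2 only, and that at dat-1 had 0.000114 and no replicate match. The genes C53B7.6 and T02C1.1 were nearer to these regions than odr-10 and dat-1 were.

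Of 24 other regulators of neuron identity or neuron lineages outside the 33, 8 had a region (33.3%, against 36% of protein-coding genes other than the 33). Their median length was 3.45 kb, and 36.3% of other genes of 2 to 4 kb had a region. Inside genes, 6 of these 24 regulators had a region (25%, against 9.59%), and 12.5%, against 3.51%, had one there in both replicates. The strongest were at ceh-43, ceh-34 and sem-4. Region III 4447916 to 4448411 inside ceh-43, the Distal-less gene, had 1.58e-37 in the series list, 1.25e-27 in replicate 1 and 1.04e-10 in replicate 2. At ceh-34, a Six-type gene, a region with 1.58e-37 in the series list lay 1.84 kb outside, nearer to ceh-33, and another inside the gene had 4.92e-23. Both were in all 3 lists. SEM-4, a Spalt-type zinc finger factor, had 3 regions, the strongest with 2.49e-23. For gene and sides, the series shares of both lists were below the 63.6% of the 33 regulators. The median length of the 33 was 4.9 kb, against 3.45 kb for the other regulators and 4.97 kb for the effector genes. Inside genes, the 33 regulators had the highest series share, at 36.4%, but in replicate 2 they had 12.1%, against 12.5% of the other regulators and 13.8% of the effector genes, and the shares in both replicates were the same 3 values. All 3 lists were chosen by hand, and the difference between them was not tested.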

How the data were processed

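UNC-62 ChIP-seq regions of C. elegans embryos were used as deposited. Per the file headers, coordinates are on WormBase WS220, and the source column names PeakSeq. No source used here gives the version, the aligner, the filters or how the replicates were combined. The authors deposited 1 unnamed value per region, read here as a q-value (a p-value corrected for the number of regions). The reason is that the value times the region number never decreased (0 decreases in each list, tolerance 1e-09). A plain p-value could do the same, so the reading is an assumption. Depth and enrichment both move these values, so ranks are within a list.

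Genes came from the RefSeq table of WBcel235 (all 33 symbols matched), which has no strand or exons. The planned window reached 2 kb upstream. It was replaced by 2 kb on both sides, with the count that holds whichever strand given beside it. Regions matched across lists when they overlapped by at least 1 bp. Where several did, the strongest was taken.

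Members and lists were chosen with earlier results of these data known. No test was run: there is 1 group with region lists, and counts are set beside those of all other genes. All 33 members are named. Of the other lists, the 3 genes with the strongest regions are named by a rule. The remaining effector genes are all named, in groups chosen after their values were seen. Counting was tested on simulated regions. Python 3.11.15, pandas 2.3.3, NumPy 2.4.6, SciPy 1.17.1 and Matplotlib 3.10.9 were used. Promoter motifs were not analysed here.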

Additional observations from a re-analysis of the deposited data

How the results depend on the processing

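The share of neuron fate regulators with a region was above that of other protein-coding genes under all 15 alternatives run, by 6.22 to 28.6 percentage points, against 27.6. Among these, a q-value under 0.001 removed nothing from the series list, whose largest value was 0.000997. Its series values therefore had to equal the main ones, and they count among the 15 and the 117. The gap was 6.22 at a q-value of at most 1e-10, 8.05 on the 2 kb sides alone, and 7.17 with the replicate 2 list alone against 25.4 with replicate 1 alone. Of 117 values, 78 kept within 1.5 times the main one, or within its 95% Poisson interval for densities. The number of regulators with a region, 21, was 12 inside genes or whichever strand, 13 on the sides, 7 at 1e-10, and 8 to 20 with 1 replicate left out. With the gene table moved up 100 bp it was 19, without lin-32 and fax-1. In both replicates, the 8 became 4 (inside, sides, whichever strand), 5 (nearest gene only), 3 at 1e-05 and 2 at 1e-10; on the sides that was 12.1%, below the 13.7% of other genes. Effector genes, 9 (31.0%, against 36% of other genes), became 17 with a reach of 5 kb (58.6%, against 52.2%), 4 at 1e-05, 3 at 1e-10, 5 inside genes (17.2%, against 9.59%), on the sides, whichever strand or by nearest gene, and 5 to 8 with 1 replicate left out. The other neuron regulators, 8, became 3 at 1e-10 and 3 to 8 with 1 replicate left out. Other protein-coding genes, 7187, became 1912 inside genes, 2581 whichever strand, 4577 by nearest gene, 2989 at 1e-10, and 3403 to 7016 with 1 replicate left out. The median number of regions per regulator, 1, was 2 with 5 kb and 0 at 1e-05, at 1e-10, inside, on the sides and whichever strand, and 0 to 1 with 1 replicate left out. Regions per kb at regulators, 0.124 (against 0.0767 at other genes), became 0.0751 at 1e-05 (against 0.0513), 0.0261 at 1e-10 (against 0.0257) and 0.0294 to 0.14 with 1 replicate left out (against 0.0298 and 0.0743). Stricter values and smaller windows lower counts by construction. The inside, sides, strand, nearest-gene and 0.001 alternatives were chosen after seeing the data. The 2 upstream-only windows and the nearest 5′ end were not run for want of strand. No paired analysis was possible because only UNC-62 ChIP has region lists here. With no depth given, its part in the shorter replicate 2 list was not tested.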

Other observations

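By chromosome, the regulators with a series-list region were 8 of 11 on X (72.7%, against 41.0% of other genes there), 5 of 8 on II (62.5%, against 36.2%), 2 of 4 on III (50.0%, against 47.1%) and 2 of 4 on IV (50.0%, against 35.0%). On I and V they were 2 of 3 each (66.7%, against 45.8% on I and 22.5% on V). The 12 regulators without a region had a median length of 4.5 kb, close to the 4.96 kb of the 21 with one. Of these 12, the next series region lay within 5 kb for 4, within 10 kb for 6 and within 20 kb for 10. With a reach of 5 kb, 25 of all 33 regulators (75.8%) and 52.2% of the other genes had a region. Shares at 10 and 20 kb are not given for the other genes.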
